A study of Mus musculus with 8 samples.

Results

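The regions described here are late-opening stretches of chromatin: they had no called peak before 4-hydroxytamoxifen (4-OHT) or at 30 min and had one in every library at 1 h and 2 h. Peaks of the 8 deposited ATAC-seq lists that overlapped were merged into 174718 regions, and the rule kept 1721 of them, or 0.985%. They were 2.61% of the 65865 regions that all 4 libraries of 1 h and 2 h shared. They were chosen by the peak calls of all 4 time points, so the absence of early peaks and the presence of late ones are descriptions and not findings.

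ATAC-seq marks accessible DNA by letting the Tn5 transposase insert sequencing adapters into it, and only short, nucleosome-free fragments entered these lists. All samples were B3 cells, a mouse pre-B line that the study traces to a lymphoma, transduced with Ikaros-ERt2, a fusion of Ikaros (IKZF1) to a hormone-binding domain that 4-OHT carries into the nucleus. The 0 h group was untreated, the other 3 groups had received 4-OHT at 500 nM and were taken after 30 min, 1 h and 2 h, and every group had 2 replicates. No group had 4-OHT without Ikaros-ERt2, and no solvent is named for the 0 h cells. Effects of the drug, of time in culture and of Ikaros therefore cannot be told apart. The cells were sorted for a reporter after retroviral transduction, and whether the 2 replicates were separate cultures is not stated. If they were not, spread between them may be technical.

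Ikaros is a zinc-finger transcription factor of lymphocytes that is best known for shutting down genes as pre-B cells stop dividing and mature, in part through the NuRD corepressor, and it reads short words around GGAA and GGGA. Opening of chromatin usually follows binding of other factors that recruit remodelers, and in pre-B cells these include RUNX proteins, E proteins such as E2A, forkhead factors such as FOXO1 and members of the KLF family. Loss of Ikaros function recurs in B cell acute lymphoblastic leukemia.

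The lists held 85903 to 103897 peaks each, and a peak rested on few fragments, with a median of 11 to 14 at the summit and a lowest value of 3 or 4. The genome-wide background was 0.26 to 0.405 fragments per base, with 0.26 and 0.389 at 0 h, 0.305 and 0.405 at 30 min and 0.312 to 0.366 later. Of 12 pre-B marker genes, 9 had a promoter peak in all 8 lists, among them Pax5, Ebf1, Cd79a and Il7r. Defining myeloid genes (Mpo, Elane, Csf1r and Itgam) had no promoter peak in any list, while Lyz2 had one in 2 lists. Of 5 T cell genes Lck had one in all 8 lists, and the fibroblast gene Col1a1 did too.

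The sequences of the strongest late-opening regions are given first, because sequence is what the peak calls did not use. Each line shows 200 bases of the GRCm38 plus strand centred on the summit, from 5′ to 3′, and capitals mark matches to 6 sets of words on either strand: RUNX (TGTGGT), forkhead (TGTTTAC), a palindromic E-box (CAGCTG), an asymmetric E-box (CAGGTG), KLF (GGGTGTG or GGGCGTG) and AP-1 (TGANTCA). The first 6 belong to the regions with the highest peaks at 1 h and 2 h. The region in an intron of Ica1 has a RUNX word and an asymmetric E-box within 25 bases of its summit. The window near Pdgfa, mostly masked as repeat, has a KLF word 3 times and an asymmetric E-box 2 times.
Ica1 intron, chr6:8712035-8712234: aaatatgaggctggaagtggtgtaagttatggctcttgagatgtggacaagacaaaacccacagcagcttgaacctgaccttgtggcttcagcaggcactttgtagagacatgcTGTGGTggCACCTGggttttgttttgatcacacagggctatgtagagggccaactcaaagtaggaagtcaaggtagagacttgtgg
Near Pdgfa, chr5:138913396-138913595: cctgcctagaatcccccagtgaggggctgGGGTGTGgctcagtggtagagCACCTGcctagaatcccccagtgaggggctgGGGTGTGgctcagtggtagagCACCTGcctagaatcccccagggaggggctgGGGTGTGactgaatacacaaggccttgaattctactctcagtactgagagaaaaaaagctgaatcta
Arih2 intron, chr9:108630781-108630980: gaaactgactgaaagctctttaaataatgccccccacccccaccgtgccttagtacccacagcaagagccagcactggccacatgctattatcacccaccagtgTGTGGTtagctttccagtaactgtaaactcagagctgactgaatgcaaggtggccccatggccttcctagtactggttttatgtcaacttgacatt
Ndufs4 intron, chr13:114305001-114305200: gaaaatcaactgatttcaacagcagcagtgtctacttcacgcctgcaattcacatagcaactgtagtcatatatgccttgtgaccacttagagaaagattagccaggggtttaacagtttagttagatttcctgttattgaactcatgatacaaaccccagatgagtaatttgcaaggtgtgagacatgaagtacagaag
Kif27 intron, chr13:58292913-58293112: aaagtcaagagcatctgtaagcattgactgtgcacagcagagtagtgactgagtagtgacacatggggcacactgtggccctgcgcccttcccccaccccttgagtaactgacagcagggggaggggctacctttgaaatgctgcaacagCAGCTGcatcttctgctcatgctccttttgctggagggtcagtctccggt
Rbms3 intron, chr9:117400484-117400683: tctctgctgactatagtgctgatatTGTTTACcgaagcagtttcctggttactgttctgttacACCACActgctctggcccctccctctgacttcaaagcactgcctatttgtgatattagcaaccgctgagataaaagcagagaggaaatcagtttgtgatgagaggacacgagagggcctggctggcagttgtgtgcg

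The next is from one of the 2 strongest such regions at promoters of protein-coding genes, and the last 3 lie near Mdm2, Fyn and Insig2, genes of the lists described further on. Of these 10 windows, 7 hold at least 1 of the marked words, and the windows near Mdm2 and Insig2 are masked as repeats over 62.5% and 78.0% of their bases.
Gpat3 promoter, chr5:100847242-100847441: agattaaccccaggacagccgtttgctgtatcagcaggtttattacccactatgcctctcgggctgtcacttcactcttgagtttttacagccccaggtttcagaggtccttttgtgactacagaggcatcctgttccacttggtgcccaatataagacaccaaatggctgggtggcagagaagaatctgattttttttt
Mdm2 intron, chr10:117697542-117697741: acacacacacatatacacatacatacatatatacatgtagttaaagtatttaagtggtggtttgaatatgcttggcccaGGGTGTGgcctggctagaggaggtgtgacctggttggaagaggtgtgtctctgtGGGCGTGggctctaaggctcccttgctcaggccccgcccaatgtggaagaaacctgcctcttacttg
Fyn intron, chr10:39458832-39459031: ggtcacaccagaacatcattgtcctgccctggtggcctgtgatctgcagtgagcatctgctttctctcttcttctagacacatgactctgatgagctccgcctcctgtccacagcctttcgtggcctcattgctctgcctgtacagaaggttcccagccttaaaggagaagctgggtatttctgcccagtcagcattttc
Near Insig2, chr1:121346190-121346389: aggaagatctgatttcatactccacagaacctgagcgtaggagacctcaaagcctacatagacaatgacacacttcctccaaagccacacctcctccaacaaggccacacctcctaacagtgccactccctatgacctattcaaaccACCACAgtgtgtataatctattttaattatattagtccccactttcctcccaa

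The late-opening regions carried weak peaks. Strength is given as the fold percentile, the rank of a peak among all peaks of its own list by fold over local background, with 100 for the strongest. The median late-opening region lay at percentile 32.7 and 28.3 in the libraries of 1 h and at 38.2 and 33.5 in those of 2 h, where the median of all regions with a peak lay near 50.5. At its summit the median region had 8 fragments in each 1 h library and 9 in each 2 h library. Only 3 regions had a mean percentile over 75 across the 4 lists, 199 (11.6%) were over 50, and 468 (27.2%) were under 25. Regions open in all 8 lists had medians of 74.6 ± 1.98 at 1 h and 74.7 ± 0.79 at 2 h (SD over 2 libraries each).

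**Figure D1:**
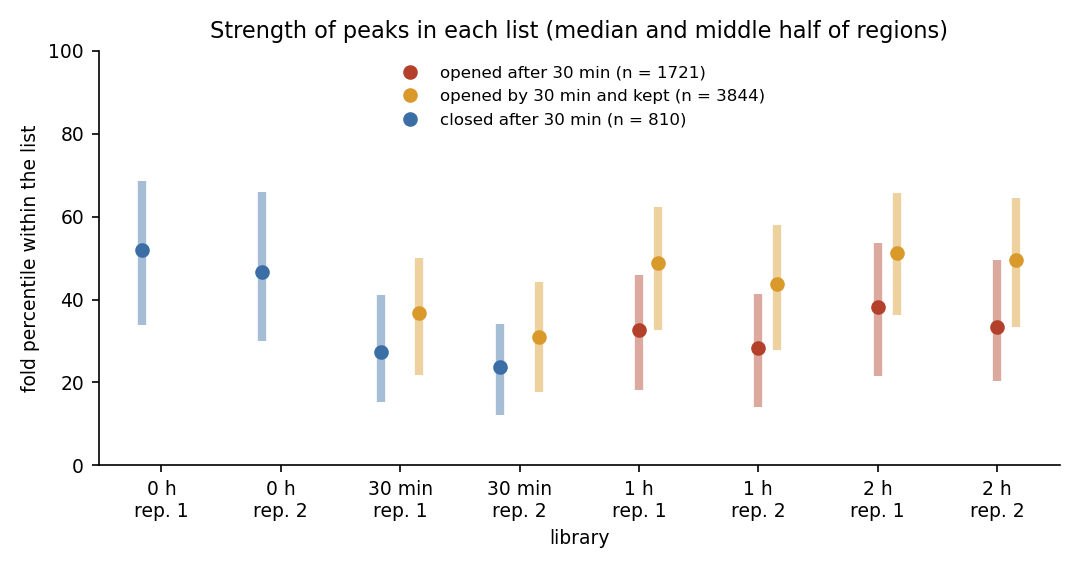
Fold percentile of peaks within each of the 8 lists (vertical axis, 0 to 100) for late-opening regions (opened after 30 min), regions opened by 30 min and kept, and regions that lost their peak (closed after 30 min), where points are medians and bars the quartiles. Late-opening regions have medians of 28.3 to 38.2, and the regions opened by 30 min have medians of 43.8 to 51.3 in the same 4 late lists.

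The strongest of all was the Ica1 intron region, 65805 bp from the gene's nearest start site and 394 bp long. Its fold percentiles were 72.2 and 72.9 at 1 h, then 90.1 and 91.2, with 15 and 15 fragments, then 28 and 28. Both 2 h libraries were above both 1 h libraries. Ica1 encodes a protein of secretory vesicles. The adjusted p of the step from 1 h to 2 h was 0.869 in the limma fit described below, so that step was not called.

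Second was a 335 bp region 81324 bp from the start site of Pdgfa, a growth factor chain, with 1 h percentiles of 70.7 and 89.2 and 2 h percentiles of 74.4 and 80.6. Here the 2 times overlapped, and 71.5% of the window is repeat. Next came a region in an intron of Arih2, a ubiquitin ligase, with 15, 15, 18 and 17 fragments and percentiles of 72.0, 73.9, 78.2 and 76.0. These 4 values lay within 6.17 points of each other.

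The region in an intron of Ndufs4, a subunit of respiratory complex I, had 12 and 17 fragments at 1 h, then 29 and 31 at 2 h. Near Thbs2, a matrix glycoprotein gene, the counts were 12 and 11, then 21 and 21, with percentiles of 63.8 and 59.6, then 84.9 and 85.0. In both places the 1 h and 2 h libraries did not overlap. The other 7 of the 12 strongest regions had mean percentiles of 69.9 to 73.9. They lay near or in Kif27, Rbms3, Gm49439, Fgfr1op, Ankrd34b and Kcnk10. The last was intergenic, with Zwint its nearest coding gene at 436771 bp. All but 1 of the 12, at the start site of the non-coding gene Gm49439, lay away from promoters.

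Agreement between libraries was modest for single regions. The percentile of a region differed between the 2 libraries of a time point by a median of 13.1 at 1 h and 13.0 at 2 h, and ranged over a median of 30.6 points across the 4 lists. Across the 1721 regions the percentile correlated between replicates with a Pearson r of 0.33 at 1 h and 0.43 at 2 h, where all points come from shared libraries and most sit at under 15 fragments. Summits lay close together, with all 4 within 50 bp in 976 regions (56.7%).

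The edge of the rule ran through weak peaks. The 3 regions with the lowest significance inside it, in Agpat3, at Mirlet7i and in Slc22a3, had a lowest −log10 q of 1.34, 1.36 and 1.39, where the lists end at a q of 0.05. Just outside stood stronger regions, named here for that strength. In an intron of Greb1 a region had 22, 22, 22 and 26 fragments at 1 h and 2 h and missed the rule through 1 peak of 7 fragments in the second 30 min library. A region in Spop had 17, 18, 27 and 25 fragments and a peak of 13 in the same 30 min library, and one near Zfp148 had 15, 19, 27 and 26 fragments after a peak of 17 in the first 30 min library.

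In all, 3284 regions missed the rule by 1 early peak and 3564 by 1 late list. Of the first, 1973 had their early peak in the first and 939 in the second 30 min library, against 225 and 147 in the 0 h libraries, and that peak had a median of 7 fragments. Without the first 30 min library the rule gave 3697 regions, without the second 2659, and without the second 1 h library 3178. When only peaks with a −log10 q of at least 5 counted, 1648 regions passed, and 486 of them were among the 1721. These 486 are given beside the whole set for results that could turn on weak peaks.

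Whether peaks went on growing from 1 h to 2 h was tested in all 65865 regions with a peak in the 4 late lists. The test was limma on normal scores of the fold percentile, with Benjamini-Hochberg adjustment. The rule treats those 4 lists alike, but it also asks for no peak in any early list. It may thus favour regions that were still low at 1 h and rising. Part of any excess of late-opening regions higher at 2 h, here and below, may come from that choice. How large a part was not tested. None of the 1721 late-opening regions and none of all tested regions (0%) passed an adjusted p of 0.01, and the lowest adjusted p was 0.869. At an unadjusted p under 0.05, 228 late-opening regions (13.2%) were higher at 2 h and 47 (2.73%) lower, against 3.31% and 2.4% of all tested regions. These counts moved with the fit. With a trended, robust prior they were 118 (6.86%) and 6 (0.349%), against 3.51% and 2.24% of all tested regions. Without the first 2 h library the median difference in normal score was 0.188 in late-opening regions and 0.00633 in all tested regions. Without the second it was 0.269 and 0.0471.

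Both 2 h libraries were above both 1 h libraries in 495 late-opening regions (28.8%, against 18.9% of all tested regions) and below both in 172 (9.99%, against 16.1%). The mean percentile was higher at 2 h in 1128 of 1721 (65.5%), with a median difference of 6.13 points, and in 52.0% of all tested regions, with a median difference of 0.259. In the 486 regions with strong calls in every late list it was higher in 329 (67.7%). Regions opened by 30 min and kept had it higher in 62.3%, with a median difference of 4.19. The medians per library, 30.5 ± 3.15 at 1 h and 35.8 ± 3.30 at 2 h (SD, n = 2), lay less than 2 SD apart, so for the set as a whole the times were not well separated from the spread between libraries. Both 2 h medians (38.2 and 33.5) lay above both 1 h medians (32.7 and 28.3), with the first replicate higher at each time.

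**Figure D2:**
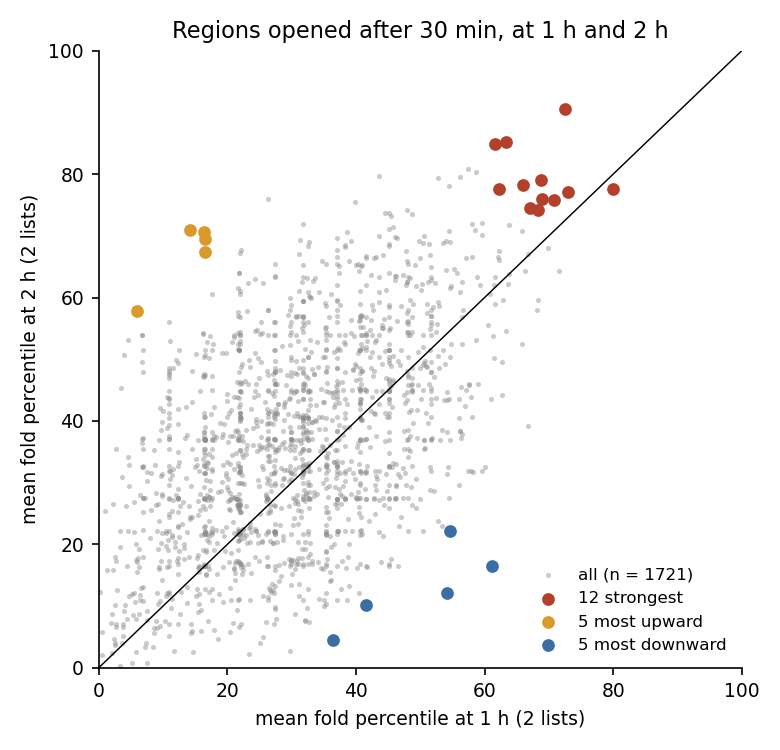
Mean fold percentile of each of the 1721 late-opening regions at 1 h (horizontal) and 2 h (vertical), each over 2 libraries, where the line marks equal values. Above the line lie 1128 regions, the 12 strongest and the 5 largest differences in each direction are coloured, and no difference passed the test.

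The 5 regions with the largest percentile differences upward lay near Lpar1, in Zfat, near Adgre5, near Azin1 and in Gm47071. The start sites of Lpar1, Adgre5 and Azin1 were 91500, 23574 and 41226 bp away. The one near Lpar1, a receptor for lysophosphatidic acid, had 9 and 8 fragments at 1 h, then 26 and 25, and percentiles of 14.8 and 13.6, then 71.3 and 70.6. In an intron of Zfat, a zinc-finger gene active in lymphocytes, fragments were 5 and 6, then 14 and 14. The region near Adgre5, which encodes the adhesion receptor CD97, had 6 and 5, then 13 and 15. The windows near Lpar1 and Adgre5 and in Gm47071 were 100%, 73.5% and 63.0% repeat. The 5 differed by 50.8 to 56.7 points with no overlap between times, and each had an adjusted p of 0.869.

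Downward, the largest differences lay 9496 bp from Ccdc130, 114216 bp from Spef2 and in Cdk17, Tox and Rfx2. They came to -31.3 to -44.7 points. The region in an intron of Tox, a nuclear factor of T cell development, had 7 and 9 fragments, then 4 and 5 at 2 h. In an intron of Cdk17, a cyclin-dependent kinase gene, there were 10 and 10, then 6 and 6. These differences rest on a handful of fragments and none passed the test.

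The late-opening regions lay mostly inside and between genes. Of the 1721, 842 (48.9%, 95% Wilson interval 46.6 to 51.3) were intronic, 659 (38.3%) intergenic and 167 (9.70%, 8.39 to 11.2) at promoters, taken as within 1000 bp of an annotated start site. Coding exons held 20, UTRs 26 and non-coding exons 7. Promoters took 17.7% of all regions, 25.7% of those with a peak in all 4 late lists, 29.8% of those open in all 8 lists and 12.7% of those opened by 30 min and kept. In the 486 regions with strong calls the promoter share was 9.67%.

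**Figure D3:**
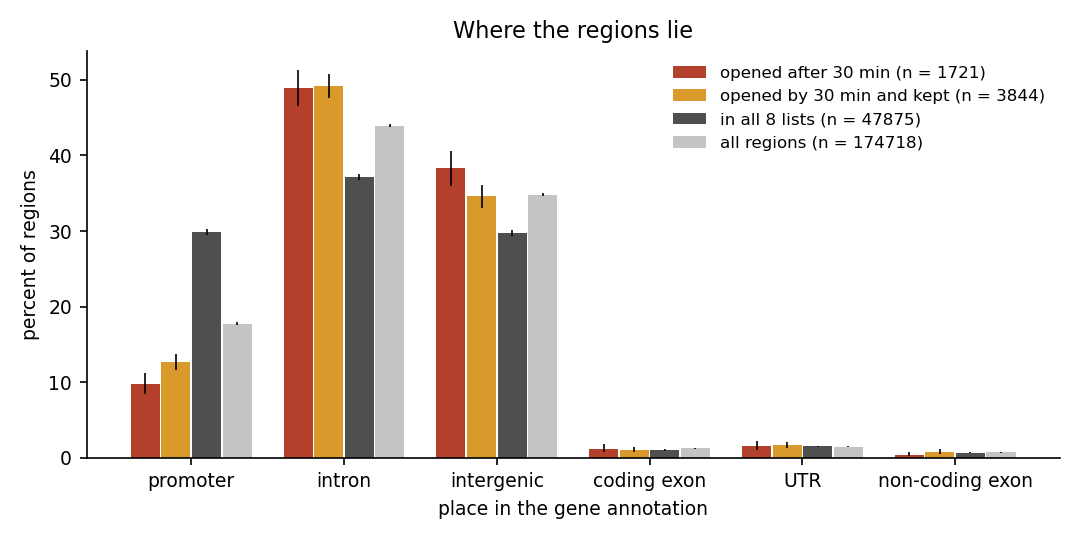
Share of regions (vertical axis, percent) by place in the GENCODE annotation, for late-opening regions (opened after 30 min), regions opened by 30 min and kept, regions open in all 8 lists and all regions, where error bars are 95% Wilson intervals. Promoters hold 9.70% of late-opening regions and 29.8% of the regions open throughout.

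The median distance to the nearest start site was 11982 bp and to that of a protein-coding gene 26344 bp, and 313 regions (18.2%) were over 100 kb from any coding start site. All regions had medians of 9857 and 20792 bp. The nearest region open in both 0 h lists was a median of 6868 bp away, against 5361 bp for all regions. Within 200 bp of such a region lay 66 late-opening regions (3.83%, against 9.68% of all), so most did not flank a site that was already open. They were also scattered, with a median of 289105 bp to the next late-opening region and 69 of 1721 within 10 kb of another.

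The local background exceeded 2 times the list's background in all 4 late lists at once in 377 late-opening regions (21.9%). The share was 37.2% in regions opened by 30 min and kept and 54.0% in those open in all 8 lists. Smaller rises, or rises in fewer lists, were not counted. Local background bears on the fold percentile, since fold is taken over it. By chromosome, chr17 held 5.64% of late-opening regions and 4.52% of all regions, chr5 7.79% and 6.41%, and chr7 4.07% and 5.54%. The X chromosome held 21 (1.22%, against 2.05%).

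Late-opening promoters were few and of mixed kinds. Of the 167, 100 were nearest to a start site of a protein-coding gene, 6 to one of an immunoglobulin segment and 61 to others, and 29 contained a start site. The strongest at a coding gene was 610 bp from the start of Nfx1, a transcriptional regulator, with 28, 15, 27 and 18 fragments and percentiles of 69.0, 43.5, 64.4 and 57.5 in the order 1 h, 1 h, 2 h, 2 h. At Gpat3, an enzyme of glycerolipid synthesis, the region had 17, 21, 16 and 19 fragments. It lay 885 bp from a Gpat3 start site and 82 bp from one of 4930458D05Rik. Neither separated the 2 times.

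At the start site of Tnfrsf23, a decoy receptor for the ligand TRAIL, the fragments were 8 and 5, then 17 and 19, and the 2 h percentiles were 73.3 and 78.5. A region 322 bp from a start site of Rapgef6, an exchange factor for the GTPase RAP, had 6 and 10, then 15 and 12. In both the 2 h libraries were above the 1 h libraries. The other 6 of the 10 strongest coding promoters were Muc3a, Cep295nl, Olfr1336, G6pc3, Herc6 and Rabgef1, at mean percentiles of 47.3 to 54.7. The Rabgef1 region, 844 bp from that gene's start site, lay nearer to Gm15920, at 286 bp.

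In the sequence, late-opening regions had fewer Ikaros words than other regions. The 4-letter core words GGAA and GGGA, on either strand, occurred 1.35 times per 100 bp of the 200 bp window (SD over regions 0.909), against 2.06 in all regions, 2.15 in regions open in all 8 lists and 2.83 in the 810 regions that had a peak in all 4 early lists and in no late one. Regions opened by 30 min and kept had 1.45. No core word at all was found in 163 late-opening windows (9.47%), against 3.29% of all windows. In the 486 regions with strong calls the density was 1.302.

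The density was below that of all regions in each of 6 bins of base composition. In windows of 45 to 50% GC the density was 1.24 in late-opening regions and 1.94 in all regions, and in windows of 60% GC or more it was 1.81 and 2.57. Among regions with a mean percentile of 20 to 40 it was 1.35, against 2.47 in regions open in all 8 lists and 1.55 in those opened by 30 min and kept. The longer word GGGAA, which contains both core words, occurred in 24.1% of late-opening windows, 41.4% of all windows and 57.2% of those that lost their peak.

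The core words also had no peak at the summit. Per 100 late-opening regions, 71.9 core words lay within 25 bp of the summit and 69.5 lay over 75 bp away, which are stretches of equal length. In regions that lost their peak the same counts were 173 and 116, and in regions open in all 8 lists 115 and 104.

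**Figure D4:**
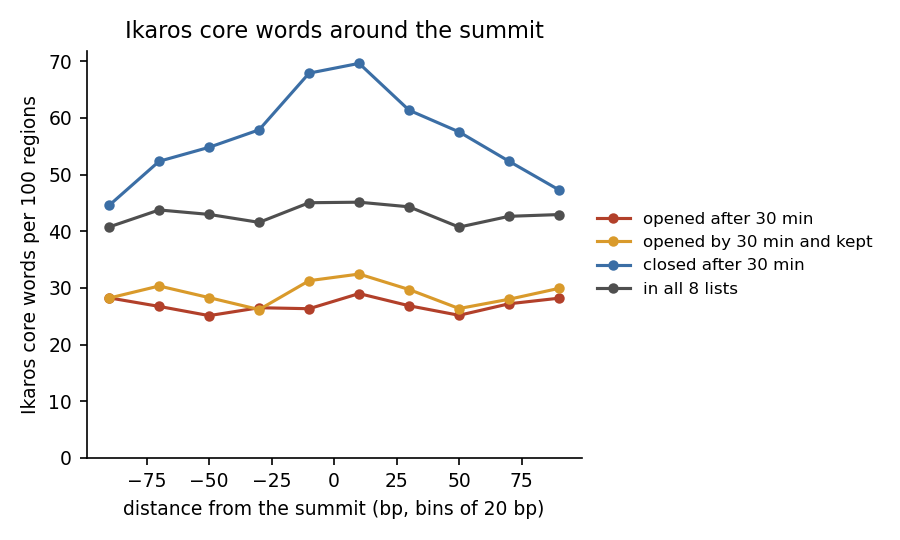
Ikaros core words (GGAA or GGGA on either strand) per 100 regions in bins of 20 bp by distance from the summit (horizontal axis, bp), for 4 sets of regions. Late-opening regions (opened after 30 min) run flat between 25.1 and 29.0, and the regions that lost their peak (closed after 30 min) reach 69.6 next to the summit.

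Words of several other factors were more frequent. The RUNX, forkhead, E-box and KLF words were picked from motif families that the study drew from these same samples, so their counts are not independent evidence. An asymmetric E-box (CAGGTG), the kind read by E2A and by ZEB repressors, was found in 471 late-opening windows (27.4%, 95% Wilson interval 25.3 to 29.5), against 18.04% of all windows and 12.8% of those that lost their peak. A RUNX word was in 507 (29.5%, 27.4 to 31.7), against 25.9% of all. Forkhead words were in 98 (5.69%, 4.69 to 6.89), against 2.62%, and palindromic E-boxes in 344 (19.99%), against 16.8%. AP-1 words were in 177 (10.3%), against 8.14% of all windows.

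CTCF words, the boundary factor's motif, were in 1.45% of late-opening windows, 4.39% of all windows and 9.02% of those open in all 8 lists. A STAT word (TTCNNNGAA) was in 3.49% and 4.93%, and an EBF word (TCCC and GGGA with 2 bases between) in 2.32% and 2.52%. An estrogen response element, GGTCA and TGACC with 3 bases between, was in none of the 1721, which allows a share of up to 0.223% (upper Wilson bound), and in 0.0172% of all windows. At least 1 of the RUNX, forkhead, E-box or KLF words stood in 1169 late-opening windows (67.9%), against 55.6% of all, and 2 or more of these 5 kinds in 417 (24.2%), against 15.2%. Regions opened by 30 min and kept were close to the late-opening ones, at 64.3% and 21.2%, and among the single words at 29.0% for RUNX, 23.6% for the asymmetric E-box and 3.90% for forkhead.

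Several of these words gathered at the summit. Per 100 late-opening regions, asymmetric E-boxes occurred 12.3 times within 25 bp of the summit and 5.81 times over 75 bp away, RUNX words 12.03 and 4.65 times, palindromic E-boxes 9.47 and 3.25 times, and KLF words 6.28 and 3.603 times. Forkhead words did not gather there, at 1.34 and 1.22. In regions open in all 8 lists the asymmetric E-box values were 6.01 and 3.55. Regions opened by 30 min and kept had 8.84 and 4.63 for that word, and 6.66 and 2.63 for KLF words. The gathering was shared with other regions, since RUNX words stood at 12.8 and 4.76 in regions opened by 30 min and kept, 11.7 and 3.33 in those that lost their peak and 9.71 and 4.01 in those open in all 8 lists. An ETS word (GAGGAAGT, which contains GGAA) occurred 4.24 and 0.349 times in late-opening regions and 4.37 and 0.364 times in those opened by 30 min and kept.

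Repeats moved with these counts. Over late-opening windows 29.4% of bases were masked as repeats, against 20.8% in all regions and 12.6% in regions open in all 8 lists, and 436 windows (25.3%) were over 50% repeat. KLF words were in 257 late-opening windows (14.9%, against 9.58% of all), and in the 1285 windows of at most 50% repeat the share was 10.4%, against 9.17%. For the ETS word it was 7.50% against 6.27%, and turned to 5.06% against 5.64% without the repeat windows. The shares for the asymmetric E-box (29.2% against 18.2%), RUNX (29.6% against 24.4%), forkhead (5.21% against 2.53%) and the Ikaros density (1.36 against 2.14) kept their direction there. How well short fragments can be placed in repeats was not tested.

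**Figure D5:**
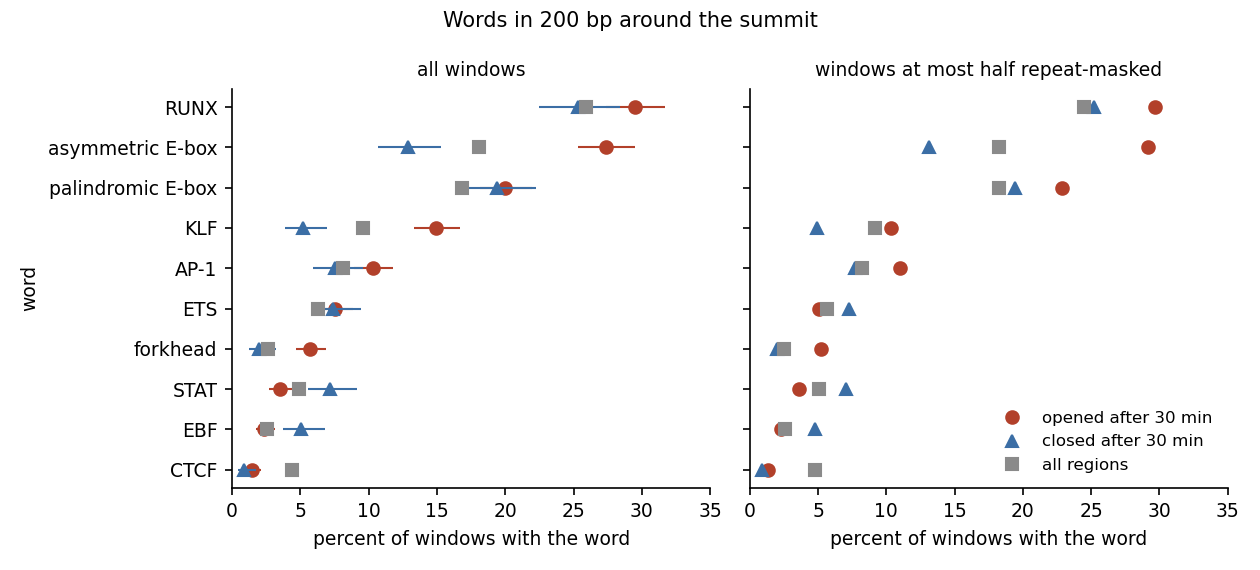
Share of 200 bp windows that hold each word (horizontal axis, percent) in late-opening regions (opened after 30 min), regions that lost their peak (closed after 30 min) and all regions, over all windows (left, with 95% Wilson intervals) and over windows of at most 50% repeat (right). The asymmetric E-box, at 27.4% and 29.2% of late-opening windows, lies to the right of all regions in both panels, while the KLF word moves from 14.9% to 10.4%.

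Strength varied with some words and little with others. Late-opening regions with an asymmetric E-box had a median mean percentile of 32.8 and those without one 33.6, and for forkhead words the medians were 35.1 and 33.3. Those with the ETS word were at 38.6 and those without at 32.8. Among the 52 regions with a mean percentile of 60 or more, 13.5% (7 regions) held a forkhead word and 19.2% a KLF word, against 4.43% and 9.59% of the 271 under 20.

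The nearest protein-coding genes numbered 1517, of which 1355 were nearest to only 1 late-opening region. Within 20 kb of a start site, 1006 of 21938 coding genes (4.59%) had a late-opening region. Of 319 genes in 15 lists of pre-B biology, 38 (11.9%) had one. These lists were drawn up for this cell type with results of these data known, and their genes lie near open chromatin more often, with 308 of 319, against 16353 of all 21938, within 20 kb of a region present in all 4 late lists. Among such coding genes at large, 6.15% had a late-opening region nearby, and of the 308 listed genes 12.3%.

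The list of B-lineage transcription factors, the longest, had 8 of its 39 genes, namely Tcf4, Foxp1, Runx1, Runx3, Spi1, Myb, Gfi1 and Zbtb7a. Their regions were weak, at mean percentiles of 2.93 to 35.3. The region in an intron of Runx3, a RUNX factor, had 20 and 10 fragments, then 19 and 15. At Runx1, 671 bp from a start site, the fragments were 21, 19, 22 and 14. Beside the start of Myb, a factor of early lymphoid growth, they were 18, 16, 14 and 14 over a local background of 3.08 to 3.82 fragments per base, which puts the fold at percentiles of 0.5 to 5.4. In the intron of Foxp1, a forkhead gene, there were 6, 4, 7 and 7.

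Of 27 genes of pre-BCR and BCR signalling, 6 had a late-opening region within 20 kb, namely Vpreb3, Cd79a, Blnk, Fyn, Pik3cd and Sh2b2. The region in an intron of Fyn, a SRC-family kinase, was the strongest of them, with 12, 12, 15 and 11 fragments and percentiles of 57.5, 55.6, 60.9 and 52.8. That in a coding exon of Cd79a, a signalling chain of the receptor, had 19, 15, 25 and 15 fragments over a background of 3.42 to 4.07 and a mean percentile of 7.76. Between Blnk, the adaptor, and Dntt, which adds bases at V(D)J joints, a region 17288 and 17364 bp from their start sites had 12, 7, 9 and 11. None of these 3 separated the times. Near Pik3cd, a lipid kinase gene, the counts were 18, 18, 19 and 21.

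Among 17 genes of apoptosis and survival, Bcl2l1, Trp53, Mdm2 and Birc3 had one. In an intron of Mdm2, the ubiquitin ligase that holds p53 in check, the region had 8 and 19 fragments at 1 h, then 17 and 11, with a mean percentile of 64.3, the highest of any listed gene. The 2 libraries of each time differed by more than the times did. Near Trp53, in an intron of Wrap53, there were 12, 8, 14 and 12.

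Of 29 immediate early and AP-1 genes, 4 had one, and the region at Fosl1, a FOS-family gene, covered a start site with 10, 8, 7 and 7 fragments. The region 9901 bp from a start site of Dusp1, a MAP kinase phosphatase gene, had 5, 6, 5 and 11, and those near Junb and Jund had 15, 17, 16, 13 and 21, 13, 21, 18. Of 15 Notch and T lineage genes, 4 had one, where Cd3e and Cd3g share 1 region. The region 645 bp from the start of Cd4 had 9, 5, 8 and 5 fragments.

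Of the 24 adhesion and homing genes 3 had one. S1pr1, the receptor that leads lymphocytes out of tissues, had a region in its intron with 14 and 15 fragments at 1 h and then 10 and 10, lower in both 2 h libraries. Ccr7, a homing receptor, had one 8015 bp away with 7 and 8, then 12 and 10. At Itgb1 there were 7, 8, 10 and 5. Of 20 myeloid and stem cell genes 2 had one. In an intron of Flt3, a cytokine receptor of early progenitors, the counts were 17, 8, 8 and 10, and at a start site of Fcgr3, an Fc receptor, 7, 6, 9 and 6.

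Of 16 genes of energy and glucocorticoid restraint only Fkbp5, a chaperone gene induced by glucocorticoids, had any, with 2 regions, the stronger with 10, 6, 7 and 12 fragments. The region near Insig2, a gene of the sterol list that restrains sterol synthesis, had 9 fragments in each of the 4 libraries. None was found within 20 kb of the 18 genes of the IL-7 receptor and JAK-STAT list, the 24 of cell cycle and Myc or the 20 of NuRD and other corepressors. Within 50 kb the first of these lists had 3, the second 2 and the third 5. Among all coding genes 4.59% had one within 20 kb and 10.3% within 50 kb, so lists this short can hold none without standing apart. Of 15 genes of recombination and light chain opening, Dntt and Xrcc6 had one, and of 20 genes of MHC class II and mature B cells, Cd37 and Tnfrsf13c. Dntt was also the 1 gene of 19 in a list of targets described as repressed by Ikaros.

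Few loci held several late-opening regions. Esm1 and Gzmk, neighbours on chr13, shared 4 within 50 kb of their start sites, and Pde4d, a phosphodiesterase gene, had 4 in its introns. At the locus of Gzmk, a granule protease gene, the 4 regions had 6 and 12, 6 and 7, 5 and 5, and 6 and 7 fragments at 1 h, and 12 and 12, 11 and 10, 10 and 8, and 9 and 7 at 2 h. By fragments the middle 2 of them were higher in both 2 h libraries. By fold percentile the first was too, at 22.14 and 62.67, then 62.68 and 64.56. In Pde4d the region 2833 bp from a start site was the largest by fragments, with 21 and 17, then 25 and 35.

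Cxadr, which encodes a cell adhesion protein, had 3 regions in its introns, with 10 and 9, 14 and 11, and 7 and 8 fragments at 1 h, and 18 and 15, 13 and 13, and 14 and 13 at 2 h. The first and the last were higher in both 2 h libraries. A group of 3 near the gene 4930442H23Rik on chr10 lay in or near Zbtb7a, Atcayos and Nmrk2. Among immunoglobulin loci, the kappa locus held 10 late-opening regions of its 292 regions (3.42%) and the heavy chain locus 1 of 316 (0.316%). Over all regions the share was 0.985%. The lambda locus held 0 of 21, which allows a share of up to 14.3% by counting error alone. Regions in all 4 late lists numbered 141 and 155 in the kappa and heavy chain loci. Genome-wide, 2.61% of such regions were late-opening.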

How the data were processed

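Nucleosome-free ATAC-seq fragments of 8 libraries were mapped and peaks were called in each library by the authors, without a control. Per the labels, the tools were BWA 0.7.17, SAMtools 1.9 and MACS2 2.1.2 and the build GRCm38. The methods text names a human genome, but all peaks lie inside GRCm38 chromosomes, and that build was used. The deposited lists give each peak's fold over local background, a ratio made by the authors' peak caller, and its −log10 p-value and −log10 q-value. No counts table was used. The fragments and background at each summit were recovered from the fold and the −log10 p-value. Whole fragments within 0.1% were found for at least 99.96% of peaks in every list. No list shared an identical set of values with another.

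Peaks sharing at least 1 bp were merged. Folds were ranked within each list as percentiles, so depth differences between lists cancel only in rank. Places came from the GENCODE annotation of GRCm38, words and lower-case repeat masking from its sequence, in 200 bp around the strongest summit. Genes were counted within 20 kb of a start site. The 2 h and 1 h libraries were compared with limma 3.58.1 on normal scores, called at an adjusted p of 0.01. Scripts ran in Python 3.11.15 and R 4.3.3 and were tested on simulated data. Intervals cover counting error only.

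The regions, gene lists and words were chosen with earlier results of these data known. Regions named are the 12 strongest, the 10 strongest at coding promoters, the strongest near each listed gene, the 5 largest differences from 1 h to 2 h each way, those of the 5 loci with most regions (ties by name) and the 3 on each side of the rule's edge. Alternatives covered the peak threshold, list length, merging, promoter width, word choice, strength measure, test and each left-out library. A few items, among them some listed genes and 1 sequence window, are not reported here.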

Additional observations from a re-analysis of the deposited data

How the results depend on the processing

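The number of late-opening regions was 1870 to 3697 with 1 library left out, past 1.5 times the 1721 without either 30 min library (3697 and 2659) or the second 1 h library (3178). The other 1 h, 2 h and 0 h libraries gave at most 2557. It was 1648 with a −log10 q of at least 5, 1291 after all lists were cut to the shortest, 1731 when windows around summits were merged and 1698 when merging needed 50 bp of overlap. The median percentile, 33.5, was 48.0 at that q and 41.0 with lists of equal length, and 29.4 to 35.9 with 1 library left out. The promoter share, 9.70%, was 8.37% with lists of equal length, 18.7% with 2500 bp (25.7% of all regions), 6.10% with coding transcripts only (14.2% of all) and 8.72% to 10.8% with 1 library left out. Ikaros words, 1.35 per 100 bp, came to 1.29 over whole regions (2.16 in all), 0.136 with GGGAA only (0.272 in all) and 1.35 to 1.42 with 1 library left out. Within 50 kb 68 of the listed genes (21.3%) had a region instead of 38, against 10.3% of all coding genes. Limits on repeats and the 486 strongly called regions were added after seeing the data. In windows of at most 50% repeat the palindromic E-box stood at 22.9%, KLF at 10.4% and ETS at 5.06%, where ETS turned below all regions (5.64%). In these comparisons the cause was not tested.

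No late-opening region was called from 1 h to 2 h by limma in the 11 alternatives, 0 with the replicate block too, at lowest adjusted p of 0.380 to 0.920. Both ends come from fits that leave 1 library at a time point, which is then assumed to vary like the other time point. At an unadjusted p under 0.05 (228 higher, 47 lower), the counts were 118 and 6 with a trended, robust prior. These were 6.86% and 0.349%, against 3.51% and 2.24% of all tested regions. On the fragment scale they were 201 (11.7%) and 23 (1.34%), against 4.32% and 2.79%. With 1 library left out, the median difference in normal score was 0.113 to 0.269 in late-opening regions and -0.0399 to 0.0517 in all tested regions. Replicates share only a number: deviations of same-numbered libraries correlated at 0.0128 over all regions and -0.0181 over late-opening ones. At a median of 8 or 9 fragments, single regions cannot be ranked closely.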
